A study of Mus musculus with 4 samples.

Results

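Genes of the lysosome, the acidic compartment in which cells break down proteins, sugar chains and lipids, were followed in the aorta of mice from 2 strains on 2 diets. The set was a fixed list of 36 genes. It holds 10 proteases, 9 glycosidases, 6 genes that hydrolyse or move lipids, 5 membrane proteins, 4 subunits of the proton pump, the transcription factor Tfeb and the secreted precursor progranulin (Grn). Of the 36, 35 had at least 1 probe set that the platform annotation assigns to that gene alone, 74 probe sets together, against 18161 such genes in the whole series. Cd63 had none in the annotation used. A filter kept genes whose mean log2 intensity lay above the median of all probe sets, 27.5 on the linear scale. It left 33 of the 36 and 11703 genes in all, and Neu1 and Tfeb lay below it.

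The control group, called B6, is C57BL/6 apoE-/-, without the apolipoprotein E that clears lipoproteins from blood, and its labelled disease state is atherosclerosis. Ath29 mice are congenic, meaning that a chromosome segment of another strain was bred into the C57BL/6 background, and are labelled as resistant to the disease. The labels give the apoE-/- genotype for the controls only. All mice were weaned at 3 weeks of age onto chow, and at 4 weeks they either stayed on it or received a Western diet for 2 weeks. Each of the 4 groups is 1 array, so no difference below has a replicate error, and how many mice gave the RNA of each array is not in the labels.

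Lysosomal hydrolases are made in the endoplasmic reticulum, tagged with mannose 6-phosphate and carried to the lysosome, where the proton pump keeps the lumen acidic enough for them to work. Macrophages that take up lipoproteins in the vessel wall depend on them: acid lipase frees cholesterol from its esters, and the NPC proteins carry it out of the lysosome. Tfeb and its relatives switch on many of these genes through a short palindromic element in their promoters, built around the E-box CACGTG and known as the CLEAR element.

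The motif GTCACGTG, a part of the CLEAR palindrome read on either strand, was looked for in RefSeq promoter windows of assembly GRCm38.p6, from 250 bases before to 50 after each listed start. Windows were found for 30 of the 36 genes. The motif was in 9 of the 30, or 30.0%, against 2.55% of the 27025 genes with a window. The 9 were Ctsa, Ctsd, Lgmn, Gla, Glb1, Naglu, Lamp1, Mcoln1 and Atp6v0d1. The bare E-box CACGTG, which every GTCACGTG contains, was in 12 of the 30 (40%) against 8.09%, and the full palindrome of the CLEAR element in 0 of the 30 against 0.370%. In a second list of 86 lysosome genes, read further below, 65 had a window. GTCACGTG was in 7 of those 65 (10.8%), the bare E-box in 13 and the full palindrome in 2. The difference between the 2 lists was not tested. The motif comes from an element already described as switching on many of these genes. The excess over all genes is therefore not an independent result. A match is a description of the letters only, and no factor binding was measured.

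The promoters of 5 members are shown, picked by hand from the 9 so that proteases, glycosidases and membrane proteins described later each have an example. The motif is in capitals on either strand. Of the members not shown, Atp6v0d1 carries it at 5, Ctsa at 14, Lgmn at 51 and Gla at 196 bases before the start. Each run is the 120 bases before the listed start, 5′ to 3′ on the gene's strand.
Lamp1 (chr8:13159041-13159160, plus strand): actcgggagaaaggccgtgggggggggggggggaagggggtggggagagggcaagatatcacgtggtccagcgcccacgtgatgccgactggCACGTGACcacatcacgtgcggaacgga
Mcoln1 (chr8:3500399-3500518, plus strand): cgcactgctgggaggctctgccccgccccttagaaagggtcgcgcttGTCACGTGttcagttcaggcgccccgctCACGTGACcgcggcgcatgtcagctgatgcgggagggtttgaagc
Ctsd (chr7:142387828-142387947, minus strand): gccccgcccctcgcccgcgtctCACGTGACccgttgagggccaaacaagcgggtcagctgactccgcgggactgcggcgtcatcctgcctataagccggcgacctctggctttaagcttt
Naglu (chr11:101069974-101070093, plus strand): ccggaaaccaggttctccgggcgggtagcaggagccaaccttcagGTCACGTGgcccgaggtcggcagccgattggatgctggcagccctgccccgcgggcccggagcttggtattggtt
Glb1 (chr9:114400958-114401077, plus strand): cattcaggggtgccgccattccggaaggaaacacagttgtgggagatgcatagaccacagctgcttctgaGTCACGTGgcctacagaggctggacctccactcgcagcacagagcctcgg

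The Lamp1 stretch holds 4 E-boxes, of which 1 extends to GTCACGTG, and the Mcoln1 stretch holds the longer motif in both orientations. In the other 3 it occurs once, beginning 98 bases before the start of Ctsd, 75 before that of Naglu and 50 before that of Glb1.

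The source label names aorta while the extract protocol names liver, so tissue markers were read first. All 10 smooth muscle markers passed the filter, with summed intensities of 25518 to 31580 units over the 4 arrays, and the hepatocyte transcript Alb read 33.7 to 64.0. Of the 8 hepatocyte markers, 4 passed the filter and 3 lay below its level on every array, and their sum of 2745 to 5080 units was mostly Cyp2e1, at 2541 to 4852. The B6 Western array stood apart in other tissue: its 9 heart muscle markers summed to 11714 units against 635 to 952 on the other arrays, and its 7 brown fat markers to 12897 against 5533 to 9764. The 3′ to middle ratio of the actin control probe sets was 5.10 (chow) and 5.63 (Western) on the B6 arrays. On the Ath29 arrays it was 10.2 (chow) and 7.62 (Western). That of Gapdh was 9.23 (chow) and 9.54 (Western) on the B6 arrays and 8.87 (chow) and 10.6 (Western) on the Ath29 arrays. Median intensities before scaling were 27.9 to 28.8.

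Lysosomal genes spanned slightly less over the 4 arrays than genes at large. The ratio of the highest to the lowest array had a median of 1.29 over the 33 genes, against 1.38 over all genes measured, and it was past 1.5 in 10 of the 33 (30.3%), against 36.2% of all genes. The lysosomal genes were also brighter: a filter at the 75th percentile kept 27 of the 33, against 7141 of the 11703 genes. The shares in this paragraph are not matched for intensity, and the part of brightness in them was not tested. Differences stayed within 0.3 log2 units for 21 of the 33 by diet in B6 mice (63.6%, against 56.5% of all genes) and for 26 in Ath29 mice (78.8%, against 66.7%). Genes were called different when at least 1.5-fold apart between 2 arrays, a size with no test behind it. By that measure 7 of the 33 genes (21.2%) were called in at least 1 of the 4 differences, against 33.3% of all genes. The 7 were the proteases Ctsz and Lgmn, the glycosidases Manba and Naglu, the acid lipase Lipa and the pump subunits Atp6v0d2 and Atp6v1b2. They made 12 called differences, 10 of which had the B6 Western array on one side (over all genes 52.9% of called differences did). The part of the heart muscle and brown fat signal of that array in these values was not tested.

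**Figure D1:**
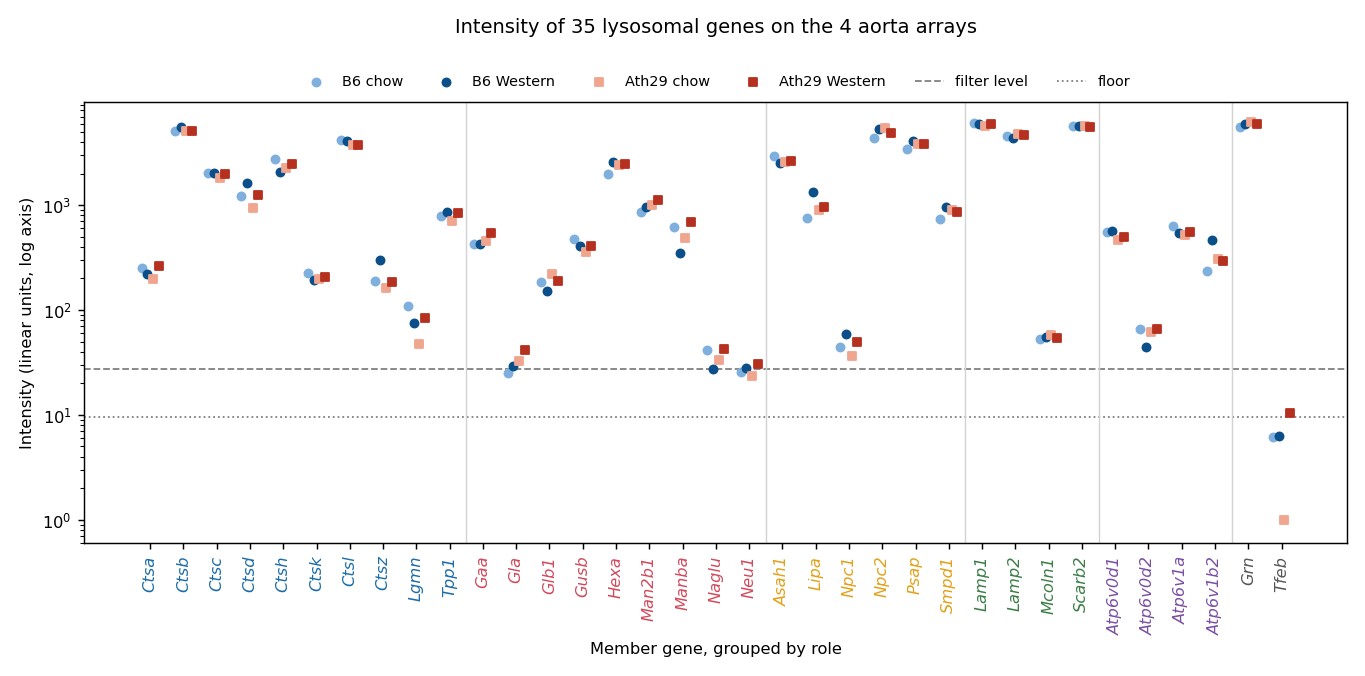
Intensity of the 35 lysosomal genes with a probe set (linear units on a log axis) on each of the 4 arrays, grouped and coloured by role, with the filter level of 27.5 dashed and the floor of 9.60 dotted. The median span from lowest to highest array is 1.29-fold. Lgmn is lowest in Ath29 chow, Manba is lowest in B6 Western, and Lipa, Ctsz and Atp6v1b2 are highest in B6 Western.

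The diet comparison asks which lysosomal transcripts read differently once mice had eaten Western diet for 2 weeks. In B6 mice, 3 of 33 genes were at least 1.5-fold higher on Western diet (Ctsz, Lipa and Atp6v1b2), or 9.09%, against 9.93% of all genes. Another 2 (Manba and Naglu) were at least 1.5-fold lower, or 6.06%, against 7.13% of all genes. In Ath29 mice 1 gene, Lgmn, was that much higher (6.02% of all genes were) and 0 were lower (4.36% of all genes). At 2-fold, 0 members were called in either direction in either strain, where 4.09% of all genes were higher and 1.17% lower in B6 mice (1.32% and 0.854% for Ath29). The median log2 difference of the 33 genes was 0.01 in B6 and 0.09 in Ath29 mice, beside -0.06 and 0.04 over all genes. These shares lie near or under the background. On the probe sets read for them, 0 members passed 1.5-fold in the same direction in both strains. Of all genes 0.837% did so upward and 0.367% downward. A dimmer Ctsz probe set passed it upward in both strains, with log2 differences of 0.78 (B6) and 0.98 (Ath29).

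**Figure D2:**
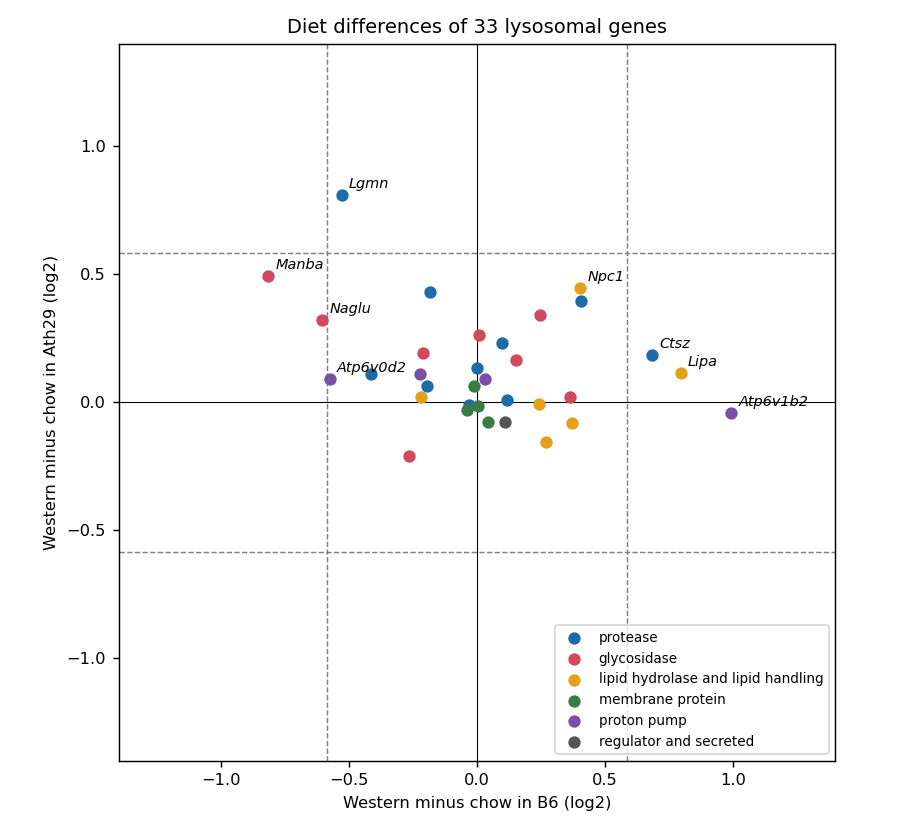
Log2 difference of Western minus chow in B6 mice (x axis) and Ath29 mice (y axis) for the 33 lysosomal genes above the filter, coloured by role, with dashed lines at 1.5-fold. On the probe sets read for them, no gene lies beyond the dashed lines in both strains, and Lgmn and Manba lie on opposite sides of 0 in the 2 strains.

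Among the proteases, the cysteine cathepsins Ctsb, Ctsc, Ctsl and Ctsk and the serine tripeptidyl peptidase Tpp1 had log2 diet differences between -0.19 and 0.23 in both strains on the probe sets read for them. Dimmer probe sets above the filter differed more: those of Ctsb ran from -0.30 to -0.03 (B6) and from -0.33 to 0.68 (Ath29, where 0.68 is past 1.5-fold), and one of Ctsc gave -0.58 and 0.32. Ctsz, the carboxypeptidase cathepsin Z, read 188 (chow) and 302 (Western) in B6 and 163 (chow) and 185 (Western) in Ath29 mice. It was 1.6-fold higher on Western diet in B6 and 1.14-fold higher in Ath29 mice, so the B6 Western array lay above the other 3. A pair of further Ctsz probe sets gave log2 diet differences of 0.78 and 0.88 in B6 and 0.98 and 0.45 in Ath29 mice, higher on Western diet throughout and by a larger margin in Ath29 mice than the probe set read for the gene.

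Ctsd, the main aspartic protease of the lysosome, read 1222, 1621, 939 and 1237; where 4 values follow a gene they are in the order B6 chow, B6 Western, Ath29 chow, Ath29 Western, and 2 diet differences are B6 first. It was 1.33-fold higher on Western diet in B6 and 1.32-fold in Ath29 mice, short of the 1.5-fold line in both. Lgmn, the asparaginyl endopeptidase that trims other cathepsins, read 109, 75.5, 47.8 and 83.8. It was 1.44-fold lower on Western diet in B6 mice and 1.75-fold higher in Ath29 mice, with the lowest value in Ath29 chow. Ctsa, which protects neuraminidase and beta-galactosidase in a complex, had -0.19 in B6 and 0.43 in Ath29 mice, but its dimmer probe set ran the other way, with 0.43 and -0.48. The aminopeptidase Ctsh had -0.41 and 0.11, and -0.32 and 0.19 on its other probe set. Over the 10 proteases, 5 were above 0 and 5 below in B6 mice, and 9 above and 1 below in Ath29 mice, with medians of -0.02 and 0.16. Of all genes, 43.4% were above 0 by diet in B6 and 56.2% in Ath29 mice.

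The glycosidases take sugars one by one off glycoproteins, glycolipids and glycosaminoglycans. Manba, the beta-mannosidase that finishes the breakdown of N-glycans, read 615 (chow) and 349.6 (Western) in B6 and 487 (chow) and 685 (Western) in Ath29 mice. It was 1.76-fold lower on Western diet in B6 mice and 1.41-fold higher in Ath29 mice, where B6 Western was the lowest array and Ath29 Western the highest. Naglu, which cleaves heparan sulfate, read 41.3, 27.2, 33.7 and 42.1 and was 1.52-fold lower on Western diet in B6 mice, with a log2 difference of 0.32 in Ath29 mice. Its B6 Western value lies under the filter level, so this difference is close to background.

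The alpha-mannosidase Man2b1 (0.15 and 0.17), the glycogen-degrading Gaa (0.01 and 0.26) and the beta-glucuronidase Gusb (-0.21 and 0.19) had small log2 diet differences in B6 and Ath29 mice. Glb1, the lysosomal beta-galactosidase, was 1.20-fold and 1.15-fold lower on Western diet. Hexa, the alpha subunit of beta-hexosaminidase, was 1.29-fold higher in B6 and 1.02-fold in Ath29 mice. The galactosidase Gla read 24.9, 29.5, 32.8 and 41.6, all near the filter level. The sialidase Neu1, between 23.7 and 30.6 on every array, did not pass the filter. Of the 8 glycosidases measured, 4 were above 0 in B6 and 7 in Ath29 mice, against 43.4% and 56.2% of all genes.

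Genes of lipid breakdown had the highest median diet difference of the role groups with more than 1 measured gene in B6 mice, 0.32 over 6 genes, with 5 above 0, and 0.01 in Ath29 mice with 3 above 0. Above 0 by diet were 43.4% of all genes in B6 and 56.2% in Ath29 mice. Lipa, the acid lipase that hydrolyses cholesteryl esters, read 761 (chow) and 1320.3 (Western) in B6 and 896 (chow) and 969 (Western) in Ath29 mice. It was 1.74-fold higher on Western diet in B6 and 1.08-fold in Ath29 mice, so B6 Western again lay above the other 3 arrays. Of its other probe sets, one gave log2 differences of 0.82 and -0.12 and the other -0.13 and -0.01, so 2 of the 3 probe sets showed the B6 difference.

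Npc1, the membrane protein that exports cholesterol from the lysosome, read 44.5, 58.9, 36.4 and 49.5. It was 1.32-fold higher on Western diet in B6 and 1.36-fold in Ath29 mice, and it and Ctsd were the only 2 measured members above 0.3 by diet in both strains (Lgmn, Manba and Naglu were past 0.3 in opposite directions). Its soluble partner Npc2 had 0.27 and -0.15. On the probe sets read for them, the acid sphingomyelinase Smpd1 (0.37 and -0.08) and Psap (0.24 and -0.01) were higher in B6 Western than in B6 chow. Both were then level between the Ath29 arrays. Psap encodes prosaposin, the precursor of the sphingolipid activator proteins. A dimmer Smpd1 probe set gave 0.00 and 0.17, and a dimmer Psap probe set 0.18 and 0.14. The acid ceramidase Asah1 had -0.22 and 0.02.

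On the probe sets read for them, the 4 membrane proteins measured spanned less than 1.1-fold over the arrays. Scarb2, the receptor that carries glucocerebrosidase to the lysosome, read 5696 (chow) and 5709.6 (Western) in B6 and 5629 (chow) and 5572 (Western) in Ath29 mice, a span of 1.02-fold. Lamp1, an abundant glycoprotein of the lysosomal membrane, spanned 1.07-fold, Lamp2 1.09-fold and the calcium channel Mcoln1 1.08-fold. These are the probe sets with the highest mean. A dimmer Lamp2 probe set read 69.1, 116, 54.8 and 66.8, or 0.74 and 0.28 in log2 diet difference. Another Lamp2 probe set read 1228, 1380, 909 and 1095, and a dimmer Scarb2 probe set 518, 647, 473 and 488. A dimmer Mcoln1 probe set read 41.0, 35.5, 50.9 and 20.5, or -0.21 and -1.31. By strain, on chow and on Western diet, the Lamp2 probe set read for the gene gave 0.08 and 0.09. Its other probe sets gave -0.33 and -0.79, -0.43 and -0.33, and -0.19 and -0.08.

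The proton pump consists of a membrane sector that conducts protons and a soluble sector that hydrolyses ATP. Atp6v1b2, the B subunit in the ATP-binding ring of the soluble sector, read 236 (chow) and 469 (Western) in B6 and 304 (chow) and 295 (Western) in Ath29 mice. It was 1.99-fold higher on Western diet in B6 mice, the largest diet difference among the probe sets read for the members, and 1.03-fold lower in Ath29 mice. A dimmer probe set of the gene read 75.4, 71.8, 57.1 and 63.0 and gave -0.07 and 0.14, so the difference rests on 1 of 2 probe sets above the filter. Its catalytic partner Atp6v1a had -0.22 and 0.11, and Atp6v0d1, the widely expressed d subunit of the membrane sector, 0.03 and 0.09. Atp6v0d2, the d subunit of osteoclasts and some macrophages, read 65.5, 44, 62.3 and 66.3, with B6 Western 1.49-fold below B6 chow and the other 3 arrays close together. A dimmer Atp6v0d2 probe set, below the filter, read 12.5, 22.0, 6.83 and 41.8, higher on Western diet in both strains.

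Progranulin, Grn, a secreted glycoprotein that supports lysosomal enzymes, read between 5503 and 6249 with diet differences of 0.11 and -0.08. Tfeb itself read 6.10, 6.26, 0.990 and 10.4, below the filter level on every array.

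**Figure D3:**
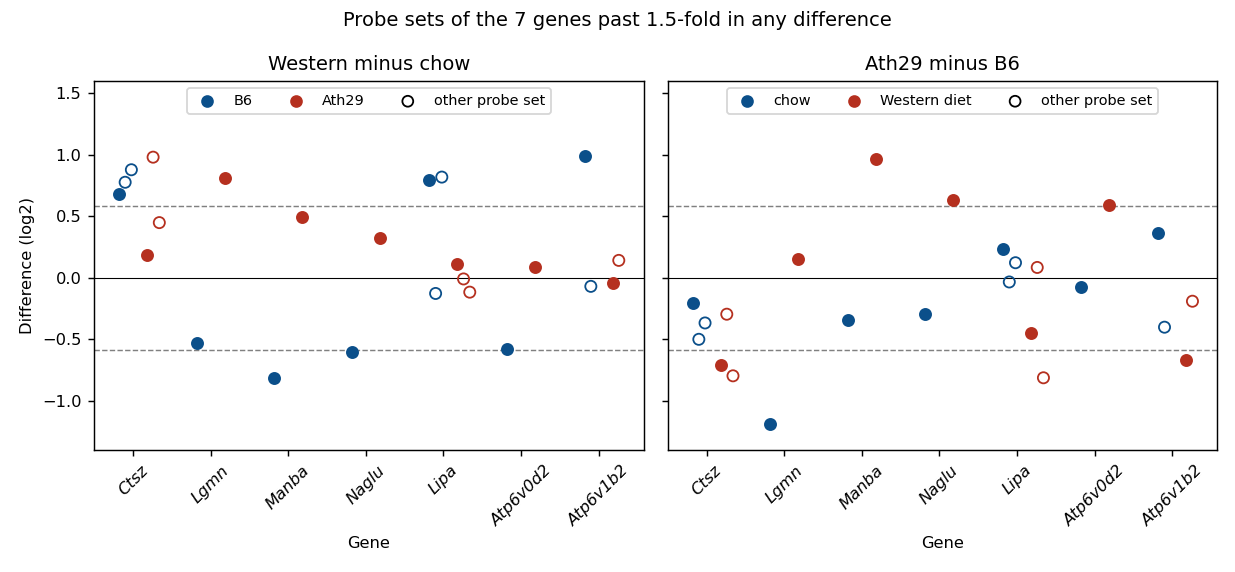
Log2 differences of every probe set above the filter for the 7 genes past 1.5-fold in any difference, Western minus chow on the left and Ath29 minus B6 on the right, with the probe set read for the gene filled and others open, and dashed lines at 1.5-fold. The 3 Ctsz probe sets lie above 0 for diet in both strains, while 1 Lipa and 1 Atp6v1b2 probe set lie near 0 in B6.

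Macrophage transcripts read higher on Western diet in both strains, and the lysosomal genes are set beside them here. Of 23 macrophage markers, 18 passed the filter, 3 lay below the filter level on every array, and the list summed to 5548 (chow) and 9898 (Western) in B6 and 6912 (chow) and 9826 (Western) in Ath29 mice. Their median log2 diet difference was 0.85 in B6 and 0.60 in Ath29 mice, against 0.01 and 0.09 for the 33 lysosomal genes. At least 1.5-fold higher were 11 and 9 of the 18 markers, against 3 and 1 of the 33 lysosomal genes. The difference between the lists was not tested. In bulk tissue a change in the number of cells of a type cannot be told apart from a change in RNA per cell.

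**Figure D4:**
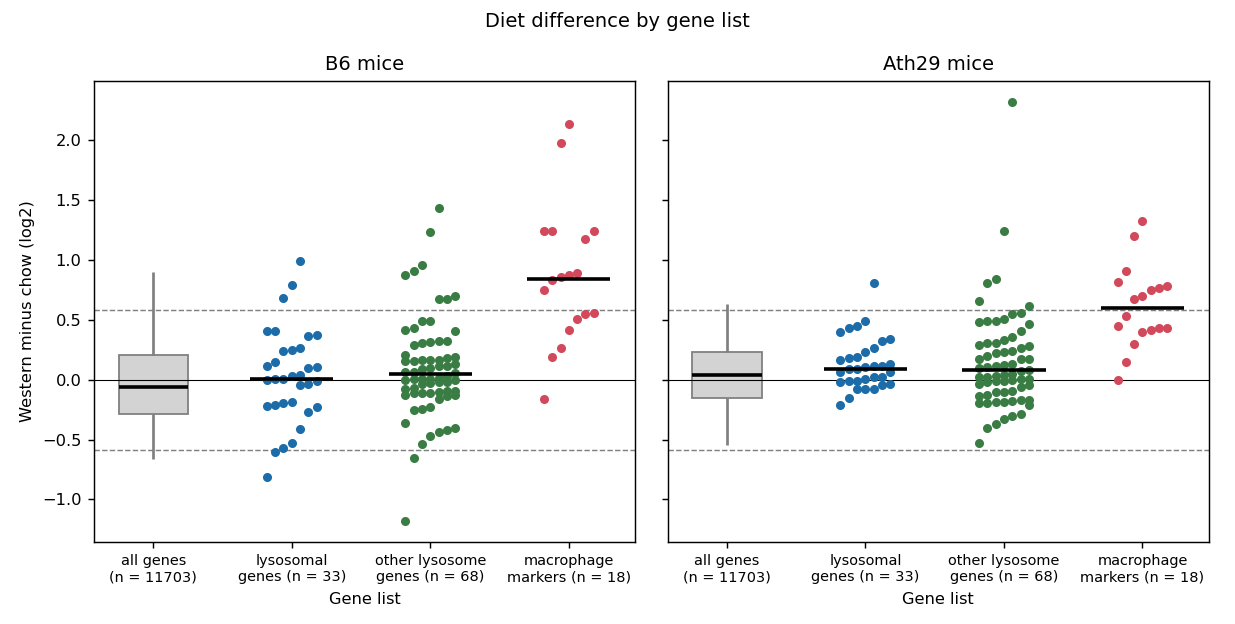
Log2 difference of Western minus chow in B6 (left) and Ath29 mice (right) for the 33 lysosomal genes, 68 other lysosome genes and 18 macrophage markers, with a thick line at each median, dashed lines at 1.5-fold, and all 11703 genes as a box from the 25th to the 75th percentile, whiskers from the 5th to the 95th. The lysosomal genes centre near 0 in both panels (medians 0.01 and 0.09) and the macrophage markers at 0.85 and 0.60.

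Further lysosome genes, from a list of 86 of which 78 had a probe set and 68 passed the filter, had a median log2 difference by diet of 0.05 (B6) and 0.08 (Ath29). Past 1.5-fold upward on Western diet were 8 (B6, 11.8%) and 6 (Ath29, 8.82%), near the 9.93% and 6.02% of all genes. Downward there were 2 (B6, 2.94%) and 0 (Ath29), against 7.13% and 4.36% of all genes. Ctss, Cd68 and Gpnmb were the 3 that passed upward in both strains, as 0.837% of all genes did. Earlier results of these arrays had already shown this for the 3 genes. The cysteine protease Ctss, which cuts the invariant chain of MHC class II, read 1279.99 (chow) and 3454 (Western) in B6 and 1390.2 (chow) and 3293 (Western) in Ath29 mice. Gpnmb, a glycoprotein of lipid-laden macrophages, read 121, 283, 91.2 and 456, and the macrophage sialomucin Cd68 37.96, 69.4, 50.1 and 89.9. In each, both Western arrays lay above both chow arrays. The pump subunit Atp6v0a2 followed, with 0.96 and 0.49. The lowest by diet were the channel Mcoln3 (-1.18 and -0.41), the aspartic protease Ctse (-0.54 and -0.14), the amino acid sensor Slc38a9 (-0.47 and -0.18) and the cystine carrier Ctns (-0.10 and -0.53).

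The strain comparison asks which lysosomal transcripts read differently in the congenic mice. On chow, 1 of 33 genes, Lgmn, was at least 1.5-fold lower in Ath29 than in B6 mice (3.03%, against 9.63% of all genes) and 0 were higher (7.26% of all genes). On Western diet 3 genes (Manba, Naglu and Atp6v0d2) were that much higher, against 5.63% of all genes, and 2 (Ctsz and Atp6v1b2) lower, against 7.89%. At 2-fold, 1 member (Lgmn) was lower on chow, against 1.94% of all genes, and 0 were higher, against 2.16%. On Western diet 0 were 2-fold higher or lower, against 0.846% and 2.03% of all genes. No member passed 1.5-fold on both diets, as 0.436% of all genes did upward and 0.829% downward. Median log2 differences of the members were -0.10 on chow and -0.01 on Western diet, beside -0.08 and 0.00 over all genes.

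**Figure D5:**
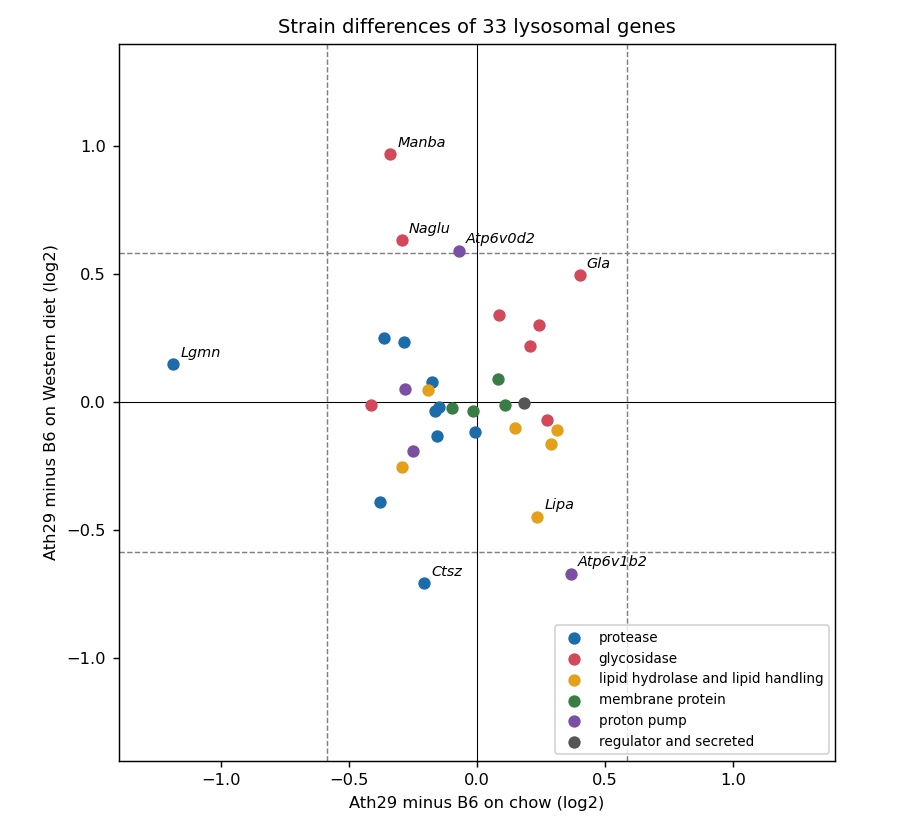
Log2 difference of Ath29 minus B6 on chow (x axis) and on Western diet (y axis) for the 33 lysosomal genes above the filter, coloured by role, with dashed lines at 1.5-fold. Lgmn lies alone on the left at -1.19, and the 5 genes past 1.5-fold on Western diet do not pass it on chow.

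Lgmn was 2.28-fold lower in Ath29 than in B6 mice on chow, while on Western diet it was 1.11-fold higher. Among the probe sets read for the members, its chow value was the largest strain difference and the only one past 2-fold. Lgmn has a single probe set. On the probe sets read for them, 10 of 10 proteases were below 0 on chow, as 58.9% of all genes were, with a median of -0.19. On Western diet 6 of 10 were, with a median of -0.03, against 49.3% of all genes. Other probe sets of Ctsa (0.45), Ctsb (0.19) and Tpp1 (0.06) above the filter were above 0 on chow. Those of Ctsb (-0.32 and -1.10, the latter past 2-fold), Ctsc (-0.59), Ctsh (-0.51) and Ctsz (-0.50 and -0.37) were below 0. Ctsd was 1.3-fold lower in Ath29 mice on chow and by 1.31-fold on Western diet, nearly the same size. On chow the smooth muscle markers were also below 0, 10 of 10 with a median of -0.29, and the fibroblast markers 8 of 8 with -0.16. Of the macrophage markers 5 of 18 were below 0, with a median of 0.32. The actin 3′ to middle ratio was 10.2 on the Ath29 chow and 5.10 on the B6 chow array, and that of Gapdh 8.87 and 9.23. The part of cell types and of RNA quality in the protease values was not tested.

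Ctsz was lower in Ath29 than in B6 mice by 1.15-fold on chow and by 1.63-fold on Western diet, and all 3 of its probe sets were below 0 on both diets. Manba was 1.26-fold lower in Ath29 mice on chow and 1.96-fold higher on Western diet, and Naglu 1.23-fold lower and 1.55-fold higher. Atp6v0d2 was 1.51-fold higher on Western diet, just past the line and under it (0.58) with no shift or with quantile normalization. Lipa was 1.36-fold lower, short of the line, on the probe set read for it. Of its other probe sets, one was past the line (-0.81) and the other near 0 (0.08). Atp6v1b2 was 1.29-fold higher for chow and 1.59-fold lower for Western diet, while its dimmer probe set was lower on both, at -0.40 and -0.19, and the mean of its probe sets gave -0.43 on Western diet, short of the line. The diet difference in B6 mice and the strain difference on Western diet share the B6 Western array, so these values and the diet values above are not independent.

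The Ath29 locus lies on chromosome 9, where 3 members lie: the protease Ctsh and the glycosidases Hexa and Glb1. Glb1 read 184 (chow) and 153 (Western) in B6 and 218 (chow) and 189 (Western) in Ath29 mice. It was 1.18-fold higher in Ath29 mice on chow and 1.23-fold on Western diet, with both differences under the 1.5-fold line. Hexa read 2003, 2579, 2418 and 2456, with strain differences of 0.27 and -0.07, and Ctsh 2779, 2087, 2280.1 and 2459, with -0.29 and 0.24, so neither kept its direction over the diets. Of the further lysosome genes on this chromosome, the hyaluronidase Hyal2 had -0.41 and -0.34, the sialic acid transporter Slc17a5 0.07 and 0.06, and the acid phosphatase Acp5 0.94 and -0.26.

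Among all 68 further lysosome genes the median strain differences were -0.04 on chow and -0.02 on Western diet. By 1.5-fold, 2 (2.94%) were higher and 6 (8.82%) lower on chow, against 7.26% and 9.63% of all genes. On Western diet 1 (1.47%) was higher and 3 (4.41%) lower, against 5.63% and 7.89%. The pump subunit Atp6v1h was the one that passed on both, as 0.829% of all genes did downward. It read 177 and 175 in B6 against 112 and 113 in Ath29 mice, or -0.65 and -0.63. The peptidase Dpp7 had -1.0 and 0.03, the membrane protein Tmem192 0.83 and -0.06, and Cd68 0.40 and 0.37.

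The members with the GTCACGTG motif in their promoter can be read beside those without it. In B6 mice the 9 genes with the motif had a median diet difference of -0.01, with 4 above 0 and 5 below, and the 18 without it 0.05. In Ath29 mice the medians were 0.32, with 7 of 9 above 0, and 0.09, with 11 of 18 above 0. Over all genes, 43.4% were above 0 by diet in B6 and 56.2% in Ath29 mice. Strain medians were -0.25 with and 0.03 without the motif on chow, and 0.15 and -0.03 on Western diet. The differences between these 2 groups were not tested. The motif-bearing group ran from Lgmn, at 0.81 by diet in Ath29 mice, to Lamp1, at 0.06, and Glb1, at -0.21.

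The only test that 4 single arrays allow is an additive fit of strain and diet over all genes with limma, in which the strain by diet difference serves as the error. It called 0 of 11703 genes for diet and 0 for strain at an adjusted p under 0.05 (0% of genes in each), with 292 genes (2.5%) and 303 (2.59%) at an unadjusted p under 0.05, among them 0 of the 33 lysosomal genes. For diet, Npc1 had the lowest unadjusted p of the members, with 0.42 ± 0.24 (SE) and an adjusted limma p of 1.0, followed by Ctsd with 0.40 ± 0.24 and Ctsz with 0.43 ± 0.26. For strain it was Gla, with 0.45 ± 0.24 and an adjusted limma p of 1.0, then Ctsz with -0.46 ± 0.26 and Ctsd with -0.38 ± 0.24. Gla read near the filter level, and its other probe set above the filter gave -0.48 on chow and 0.51 on Western diet.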

How the data were processed

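Biotin-labelled cRNA from 8 ug of total RNA was hybridised to 4 Affymetrix arrays, per the labels' protocols. The authors deposited linear intensity values, from 0.57 to 13421 over 45101 probe sets; how they were summarised and scaled is not given in the sources used here. Platform annotation named 34945 probe sets with 1 gene, of which 34943 matched the GRCm38.p6 gene table; 932 had several genes and 9160 none.

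Intensities were taken to log2, shifted to a common median (factors 0.990 to 1.02) and raised to the 25th percentile (9.60) where lower. The probe set of highest mean stood for each gene. Printed intensities are shifted values before that floor. Differences, with no test, were called at 1.5-fold. The additive model used limma 3.58.1 in R 4.3.3 with Benjamini-Hochberg adjustment over all genes, on 1 residual degree of freedom. On simulated data it recovered 94% of 100 genes changed by 1 log2 unit among 11703, with 10 false calls. In the data themselves a larger diet difference, 1.34 ± 0.24 (SE) for Ctss, was not called. The simulated share is therefore not the power of the fit on these arrays. That 0 genes were called does not show that none changed by 1 log2 unit. The members, lists and tests were chosen with earlier results of these data known. All members may be named. Of the further lysosome genes, the 4 highest and 4 lowest by mean diet difference, the 2 highest and 2 lowest by mean strain difference and those on chromosome 9 were named. Motifs were chosen after the data were seen. Alternatives changed scaling, filter, floor, probe set and fold.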

Additional observations from a re-analysis of the deposited data

Results flagged for a closer look

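Among the members, 3 had diet differences of opposite sign in the 2 strains that lay at least 2-fold apart, as 10.7% of all genes did. The diet difference in Ath29 mice minus that in B6 mice was 1.34 log2 units for the protease Lgmn, 1.31 for the beta-mannosidase Manba and -1.03 for the pump subunit Atp6v1b2. In Atp6v1b2 the Ath29 side was close to 0, at -0.04. With 1 array per group the difference between strains was not tested.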

How the results depend on the processing

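The 4 member medians moved by at most 0.1 log2 units under every alternative, though the B6 diet median went to -0.08 when probe sets matching more than one transcript were dropped and the Western strain median to 0.07 with quantile normalization, and 0 called member differences changed sign. Counts given here are of members at least 1.5-fold different unless another fold is named. At 2-fold, the B6 diet counts went to 0 higher and 0 lower, the Ath29 diet count to 0 higher, and the strain counts on Western diet to 0 higher and 0 lower. At 1.3-fold they were 5 higher and 5 lower for diet in B6 (16.2% and 17.4% of all genes), 5 higher and 0 lower in Ath29 (14.0% and 9.65%), 1 higher and 3 lower between strains on chow (14.2% and 19.9%) and 4 and 4 on Western diet (13.7% and 15.2%), with 2 higher by diet in both strains (2.16%) and 1 higher and 1 lower by strain on both diets (1.57% and 2.40%). With a filter at the 75th percentile, 27 members were left, with 1 lower by diet in B6, 0 higher by diet in Ath29, 0 lower between strains on chow and 1 higher on Western diet. With the mean of all probe sets, 1 was higher by diet in B6, 2 higher and 1 lower in Ath29, and 1 lower between strains on Western diet; Lipa (0.50) and Atp6v1b2 (0.46) were then short of the line in B6. With no shift, 1 was lower by diet in B6. Atp6v0d2 lost its call between strains on Western diet with no shift and with quantile normalization (0.58). The additive fit called 0 members under each alternative, and 0 to 2 features for diet and 0 to 4 for strain over the whole table. At an unadjusted limma p under 0.05, the mean of all probe sets gave Ctsz for diet (2.53% of all genes). With no filter it was Ctsd and Npc1 for diet (4.81%), and Ctsd, Gla, Glb1 and Npc1 for strain (5.67%). Probe sets fitted one by one gave 2 of Ctsz for diet (2.83% of all) and 1 of Ctsb for strain (3.21%). Leaving out the B6 Western array, added after seeing the data, left the 2 differences without it at medians of 0.09 and -0.10. No paired analysis was possible because each group is 1 array. Precision is limited by the number of arrays, and Gla, Naglu, Neu1 and Tfeb read below the filter level on at least 1 array.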

Other observations

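Genes that deliver or restrain the hydrolases were read from the further lysosome list. Cst3, cystatin C, the main secreted inhibitor of cysteine cathepsins, read 5017 (chow) and 4711 (Western) in B6 and 3304 (chow) and 3966 (Western) in Ath29 mice, or -0.60 and -0.25 between strains. Its intracellular relative Cstb had 0.04 and -0.19. Of the 5 enzyme sorting genes measured, the mannose 6-phosphate receptor Igf2r differed by diet by 0.41 (B6) and 0.20 (Ath29), Gnptab, which makes the mannose 6-phosphate tag, 0.18 and 0.62, the sorting receptor Sort1 0.32 and 0.18, the other mannose 6-phosphate receptor M6pr -0.07 and -0.01, and Nagpa, which uncovers the tag, 0.16 and -0.37. Of the Tfeb relatives, Mitf had 0.07 and 0.28 and Tfe3 -0.13 and 0.31. Flcn, a repressor of these factors, read 515 (chow) and 823 (Western) in B6 and 625 (chow) and 507 (Western) in Ath29 mice, high on the array that also carried the heart muscle signal. These genes, other than those the naming rule gave, were chosen after their values were seen.

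Different probe sets of one member often differed in sign. Over 18 members with a second probe set above the filter, 26 further probe sets gave 104 differences, of which 50 (48.1%) had the sign of the probe set read for the gene. The median gap was 0.27 log2 units, and 15 of the 104 gaps reached 1.5-fold.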
